A study of Mus musculus with 4 samples.

Results

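The genes described here are 8 mouse genes for transcription factors, subunits of AP-1 and others that respond to stimulation of the cell: Fos, Fosb, Jun, Junb, Jund, Egr1, Nr4a1 and Relb. Their peaks were taken from 2 lists of chromatin immunoprecipitation with sequencing (ChIP-seq), in which an antibody pulls down a protein together with the DNA it sits on. The antibodies were raised against Eos (encoded by Ikzf4) and Helios (encoded by Ikzf2), zinc finger proteins of the Ikaros family. A peak was counted for a gene when its summit, the position of its highest signal, lay inside the gene, or when the nearest end of any protein-coding gene was an end of that gene within 100 kb. By this rule 9 of 1575 peaks belonged to these genes, 6 of 1106 with anti-Eos and 3 of 469 with anti-Helios. Junb, Fos, Jund, Egr1, Nr4a1 and Relb had at least 1 peak, and Jun and Fosb had none.

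The cells were splenic regulatory T cells (Treg cells) of wild-type mice, isolated with a kit by CD4 and CD25, with no sort on Foxp3 named in the labels. They were fixed for 10 min in 1% formaldehyde, and 6 µg of antibody was used. Of the 4 libraries in the series, the wild-type anti-Eos and wild-type anti-Helios libraries were used here, 1 per antibody; the labels give no age, sex or number of animals for them. The libraries from mice with a floxed Eos gene and Foxp3-Cre, in which Eos is deleted in cells that express Foxp3, were not analysed here. With 1 library per antibody no value has a replicate error, and no difference below was tested. Of 6 genes of Treg and CD4 T cells, Il2ra, Ikzf2 and Ikzf4 had an anti-Eos summit and none had an anti-Helios summit, while Cd3e, Cd4 and Foxp3 had neither. Of all protein-coding genes, 4.38% had an assigned anti-Eos summit and 2.12% an anti-Helios summit, so finding none among 6 genes is no sign of fewer peaks. Of 3 genes of other cells (Ms4a1, Lyz2 and Cd8a), 0 had a summit in either list. Peak lists do not measure expression, so these counts do not check the purity of the cells.

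AP-1 is a dimer of basic leucine zipper (bZIP) proteins: Fos and FosB pair with c-Jun, JunB or JunD and bind short DNA elements in enhancers and promoters. Egr1 is a zinc finger factor and Nr4a1 (Nur77) an orphan nuclear receptor, and both are induced quickly when the T cell receptor is engaged. RelB is a subunit of NF-κB that acts mainly in the non-canonical branch of that pathway. In T cells AP-1 acts together with NFAT at cytokine genes, JunB supports the effector Treg state, and Nr4a proteins support Treg maintenance.

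Promoter sequences were looked up first, because a peak reached into one of them. RefSeq promoter windows of GRCm38.p6, from 250 bases before to 50 bases after the gene start, were matched for 6 of the 8 genes (Fos, Fosb, Jun, Junb, Jund and Nr4a1). The core letters GGGAA, which Ikaros family zinc fingers are known to recognise, were searched on both strands and are in capitals below (TTCCC where the match is on the other strand). The Junb window (chr8:84978699-84978998, minus strand) is shown because a peak overlapped it. The windows of Jun (chr4:95052173-95052472, minus strand) and Fos (chr12:85473640-85473939, plus strand) are shown as relatives that no peak overlapped. Each is printed 5′ to 3′ on the strand of its gene.
Junb: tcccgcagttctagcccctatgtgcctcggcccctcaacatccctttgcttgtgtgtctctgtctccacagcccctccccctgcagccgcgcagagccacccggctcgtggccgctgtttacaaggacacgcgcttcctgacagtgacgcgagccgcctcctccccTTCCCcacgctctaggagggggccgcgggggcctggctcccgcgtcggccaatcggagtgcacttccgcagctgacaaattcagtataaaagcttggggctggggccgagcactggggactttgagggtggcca
Jun: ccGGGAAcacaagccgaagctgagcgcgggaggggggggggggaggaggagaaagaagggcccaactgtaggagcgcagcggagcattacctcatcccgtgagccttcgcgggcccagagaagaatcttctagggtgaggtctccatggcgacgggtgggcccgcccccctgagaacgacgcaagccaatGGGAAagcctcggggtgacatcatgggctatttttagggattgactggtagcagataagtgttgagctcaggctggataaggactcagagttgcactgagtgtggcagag
Fos: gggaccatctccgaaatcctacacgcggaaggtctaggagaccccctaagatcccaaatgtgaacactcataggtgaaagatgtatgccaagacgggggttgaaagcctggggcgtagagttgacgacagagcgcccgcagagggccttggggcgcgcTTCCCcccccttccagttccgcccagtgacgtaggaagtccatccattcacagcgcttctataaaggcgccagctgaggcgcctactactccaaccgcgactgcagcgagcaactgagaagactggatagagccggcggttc

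The anti-Eos peak at Junb covered 47 bases of the Junb window, all of them past the gene start (chr8:84978699-84978745, minus strand).
Junb, bases inside the peak: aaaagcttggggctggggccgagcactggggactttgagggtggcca
The core letters of the Junb window lay 84 bp before the gene start, outside that peak, and the anti-Helios peak did not reach the window. The letters GGGAA were present in 5 of the 6 windows, Nr4a1 being the exception, and in 62.7% of all 32851 promoter windows of the same length. With a T before them (TGGGAA, a subset of the same matches) they were present at Jun and Jund and in 25.6% of all windows. The AP-1 letters TGACTCA, which read TGAGTCA on the other strand, the cyclic AMP response element TGACGTCA and the EGR letters GCGTGGGCG were in 0 of the 6 windows. They were in 5.20%, 1.79% and 0.612% of all windows. Only these exact letters were searched, so a count of 0 does not show that variants of these elements are absent. Windows with the core letters therefore included those of Jun and Fosb, which had no peak, and a match in these letters is only a description of the sequence.

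The first question was which of the 8 genes carried peaks of either antibody. Anti-Eos summits were assigned to 5 of 8 genes (Junb, Fos, Egr1, Nr4a1 and Relb), against 4.38% of all 21887 protein-coding genes. Anti-Helios summits were assigned to 3 of 8 (Junb, Fos and Jund), against 2.12% of all protein-coding genes. A summit of either antibody was found at 6 of 8 genes, against 4.95%, and summits of both at 2 of 8 (Junb and Fos), against 1.54%. With a -log10 q of at least 5, anti-Eos summits remained at 3 of 8 (Egr1, Junb and Relb), against 3.44% of protein-coding genes, and anti-Helios summits at 2 of 8 (Junb and Jund), against 1.63%. Fos then had no peak, and Junb was the 1 gene with both. The share of all protein-coding genes with both was not computed at this limit, so that count has no comparison. With the anti-Eos list limited by -log10 q to as many peaks as the anti-Helios list, anti-Eos kept 1 of 8 (Junb), against 2.06%. The 8 genes were picked with earlier results of these lists in view, so these shares describe the genes and give no independent evidence that the group stands apart. The most distant assigned summits were both at Fos, 18759 bp away for anti-Eos and 8717 bp away for anti-Helios, and 0 summits had a listed gene as their nearest beyond 100 kb.

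The peaks were of ordinary or low strength within their lists. Fold enrichment is the authors' own value per peak over a control that no source used here names. It is ranked only within a list, except for 1 comparison of overlapping pairs at Junb. If knockout cells treated with the matching antibody served as that control, each fold would set wild-type against knockout signal and would not give binding over input; this was not tested. The 6 anti-Eos folds ran from 4.85 to 9.26 with a median of 6.72, beside a median of 7.31 over the whole list, and 3 of 6 were above that median. The 3 anti-Helios folds ran from 6.28 to 7.87 with a median of 6.32, beside 7.66 over the whole list, and 1 of 3 was above it. Of the 9 peaks, only the anti-Eos peak at the start of Junb stood above 75.2% of its list, and the next highest, Relb with anti-Eos, above 56.9%.

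**Figure D1:**
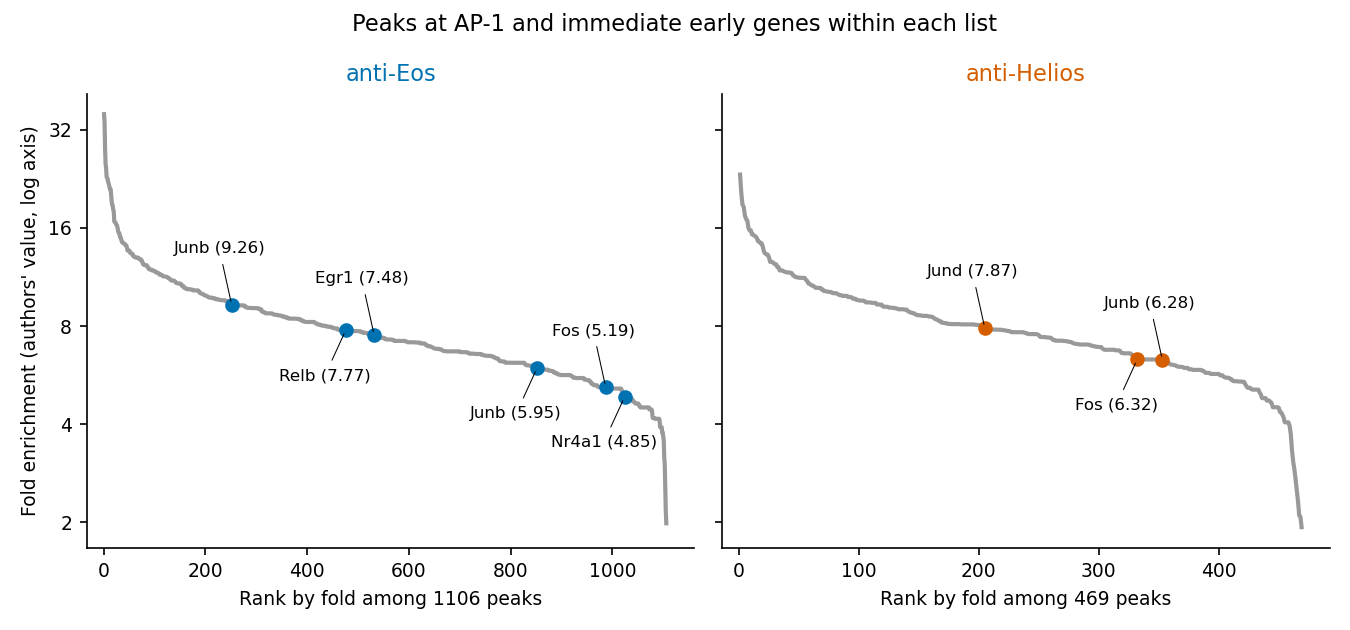
Fold enrichment of every peak (log axis) against its rank within the anti-Eos list of 1106 peaks and the anti-Helios list of 469 peaks, with grey lines for all peaks and coloured dots for peaks at the listed genes. The dots run from Junb (9.26) to Nr4a1 (4.85) with anti-Eos and from Jund (7.87) to Junb (6.28) with anti-Helios, and none lies in the steep upper part of either curve.

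Junb, which encodes a bZIP partner of the Fos proteins, was the one listed gene at which the antibodies met. The stronger anti-Eos peak (chr8:84978472-84978745) had a fold of 9.26 and its summit 87 bp past the gene start, inside the gene. The anti-Helios peak (chr8:84978539-84978682) had a fold of 6.28 and its summit 123 bp past the start. All 144 bp of the anti-Helios peak lay within the anti-Eos peak, and the summits were 36 bp apart. Over the 310 overlapping pairs of the lists the median separation was 30.5 bp (interquartile range 13 to 64 bp), so the Junb pair lay in the middle of that range. The smaller fold of the Junb pair was above that of 34.8% of the pairs. This share mixes folds of lists that were called separately, so it is a rough description only.

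Within their own lists the Junb peaks stood at different heights. The anti-Eos peak ranked 252 of 1106, above 75.2% of the list (95% Wilson interval 72.6 to 77.7%). The anti-Helios peak ranked 353 of 469, above 24.7% (21.0 to 28.8%). Each rested on few DNA fragments, a number worked out from the fold and p-value of the peak: 17 with anti-Eos (exact 95% Poisson interval 9.90 to 27.2) and 16 with anti-Helios (9.15 to 26.0). These intervals overlap for most of their length and cover counting error only. The Wilson intervals of the ranks treat the peaks of a list as a sample and leave out the counting error of a peak's own fragments. The ranks are therefore less certain than their Wilson intervals show. The local background was 0.943 fragments for anti-Eos and 1.44 for anti-Helios.

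Junb also carried a second, weaker anti-Eos peak toward the other end of the gene (chr8:84977550-84977694). It had a fold of 5.95, above 23.0% of the list, and 10 fragments (exact Poisson interval 4.80 to 18.4). Its summit lay 1104 bp past the gene start and 735 bp from the far end. The anti-Eos summits at Junb were 1017 bp apart with 777 bp between the peaks, and no anti-Helios peak overlapped the second. At least 2 anti-Eos summits were assigned to 14.8% of the 958 genes with any. All 3 Junb summits also lay within 5 kb of Prdx2, a peroxiredoxin gene, at 2833, 3850 and 3814 bp from its end.

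Jund and Jun, the other Jun genes, differed from Junb in where peaks lay. Jund, which encodes a Jun protein that many resting cells contain, had an anti-Helios peak before its start (chr8:70695418-70695607). Its fold was 7.87, above 56.1% of the list (Wilson interval 51.6 to 60.5%), with 14 fragments (exact Poisson interval 7.65 to 23.5) and a summit 2252 bp before the gene start. No anti-Eos peak overlapped it. The nearest anti-Eos summit was 23.9 kb from Jund, inside Lsm4, an RNA processing gene, with a fold of 6.57 on 10 fragments. Another 2 anti-Eos summits (9.51 and 8.62) and 1 anti-Helios summit (9.99) lay 87.4 to 88.2 kb away and were nearest to Ssbp4. There the anti-Helios peak overlapped the anti-Eos peak with a fold of 8.62.

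Jun, which encodes c-Jun (chr4:95049036-95052222), had no summit of either antibody within 100 kb. The nearest anti-Eos summit was 2.70 Mb away in Nfia (fold 7.78) and the nearest anti-Helios summit 6.29 Mb away, 174 bp from an end of Gm13286 (6.77). Jun was the only listed gene with no anti-Eos summit in that reach. Counting every summit within 100 kb, whichever gene it was assigned to, 7 of 8 listed genes had an anti-Eos summit, against 16.9% of protein-coding genes, and 3 of 8 an anti-Helios summit, against 9.31%.

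**Figure D2:**
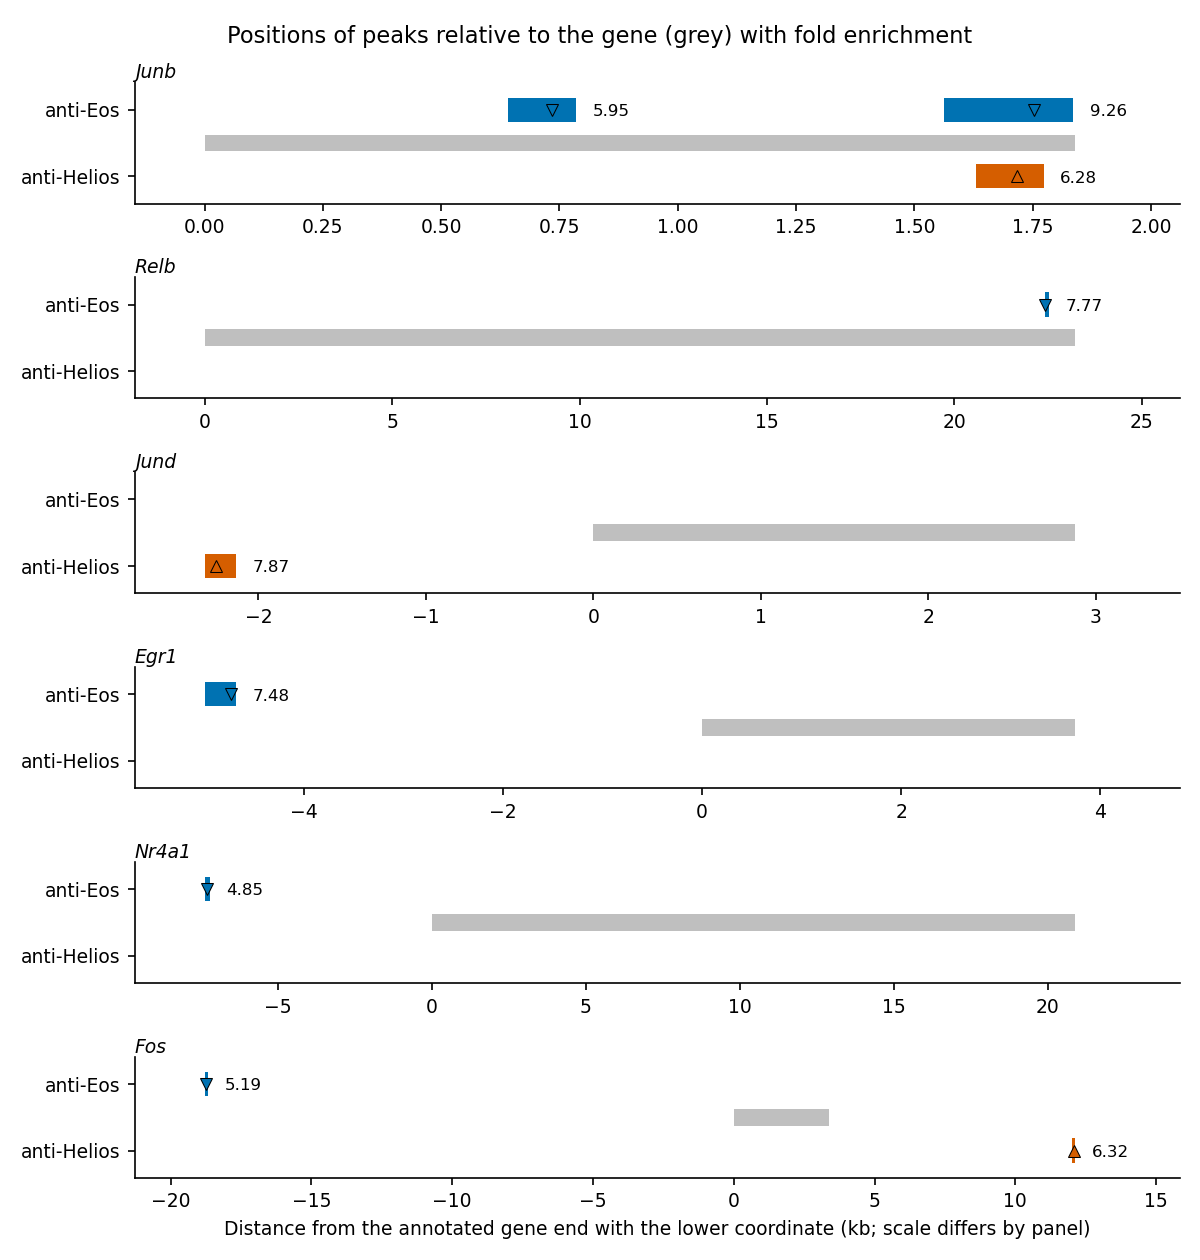
Positions of the 9 peaks relative to each gene (grey bar), as distance in kb from the gene end with the lower coordinate, with a triangle at each summit and the fold beside it; the scale differs by panel. At Junb an anti-Eos and an anti-Helios peak overlap at the right-hand end, where the gene starts, while at Fos the peaks lie on opposite sides of the gene.

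At Fos, which encodes the c-Fos subunit of AP-1, both antibodies gave a peak, but at different places outside the gene. The anti-Eos peak (chr12:85455098-85455217) had its summit 18759 bp before the gene start, inside the long non-coding RNA gene Gm38543. Its fold was 5.19, above 10.6% of the list (Wilson interval 8.90 to 12.5%), on 7 fragments (exact Poisson interval 2.81 to 14.4), the smallest count in the anti-Eos list. The anti-Helios peak (chr12:85485892-85486019) lay beyond the other end, 8717 bp from it. It had a fold of 6.32, above 26.0% of the list (22.2 to 30.2%), on 13 fragments (6.92 to 22.2). The summits were 30.9 kb apart, and no other summit of either list lay within 100 kb of Fos.

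Fosb, whose protein takes the place of c-Fos in AP-1 dimers (chr7:19302696-19310118), had no assigned summit. An anti-Eos summit lay 30.8 kb away but 29 bp from an end of Vasp, an actin regulator gene, with a fold of 8.82 on 13 fragments. The nearest anti-Helios summit was 508 kb away, inside Bcl3, an IκB family gene that binds NF-κB subunits (fold 4.05, 17 fragments).

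Egr1, Nr4a1 and Relb each had 1 anti-Eos peak and no anti-Helios peak. The Egr1 peak (chr18:34856206-34856523) was the widest of the 9 at 318 bp, with a fold of 7.48, above 51.7% of the list, and 13 fragments (exact Poisson interval 6.92 to 22.2). Its summit lay outside genes, 4732 bp beyond the end with the lower coordinate. The Nr4a1 peak (chr15:101246519-101246678) was the weakest of the 9, with a fold of 4.85, above 6.51% of the list (Wilson interval 5.20 to 8.12%). It held as many fragments as the Egr1 peak, 13, but over a local background of 1.89 instead of 0.871. Its summit was 7304 bp before the first annotated base of Nr4a1, and 20248 bp before the start used for the RefSeq promoter window, which lies further inside the gene.

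The Relb peak (chr7:19628624-19628742) lay inside the gene, 795 bp from the end with the higher coordinate. It had a fold of 7.77, above 56.9% of the list (Wilson interval 53.9 to 59.8%), on 11 fragments (exact Poisson interval 5.49 to 19.7). The nearest end of Clptm1, the next gene, was 2937 bp from the summit. The nearest anti-Helios summits to Relb, Nr4a1 and Egr1 were 188, 547 and 640 kb away, and were nearest to Bcl3, Galnt6 and Apc. A gene without an anti-Helios peak is one where no place passed the authors' threshold. The smallest deposited -log10 q was 2.24 in the whole anti-Helios list. Over all peaks at the lowest background, at any gene, the fewest fragments were 9 with anti-Helios and 7 with anti-Eos. Weaker signal at these genes is not visible in a peak list.

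**Figure D3:**
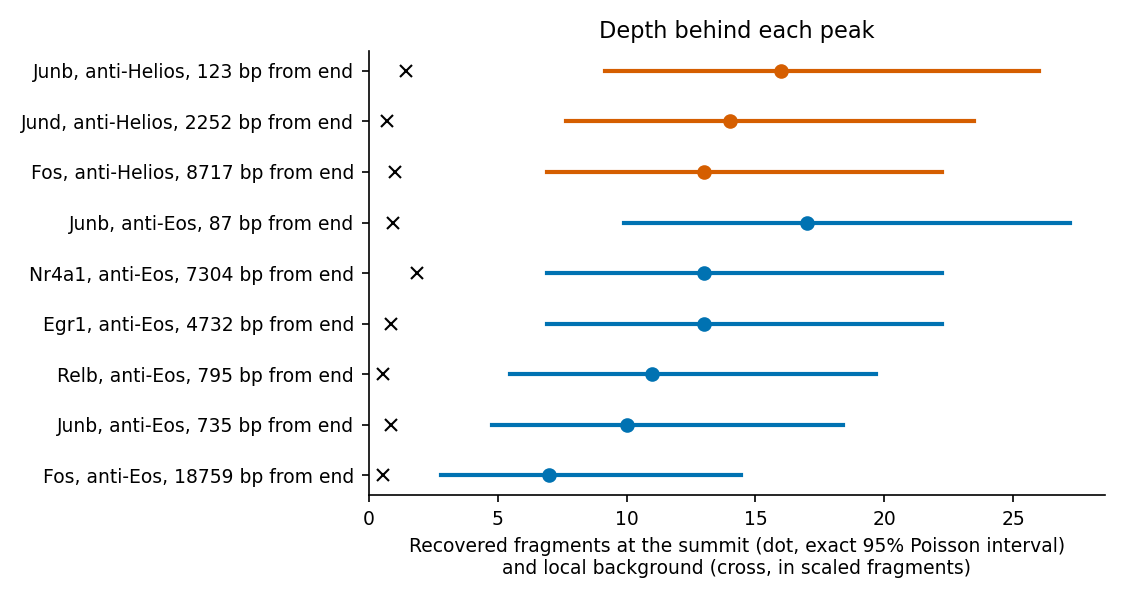
Fragments at the summit of each of the 9 peaks (dots, with exact 95% Poisson intervals) and the local background (crosses), in fragments, for anti-Eos (blue) and anti-Helios (orange). Counts run from 7 at Fos to 17 at Junb with anti-Eos and from 13 to 16 with anti-Helios, and all 9 intervals overlap one another.

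The peaks were then set beside their lists in overlap and position, as a description, since position is part of how peaks were assigned and the genes were picked with earlier results known. Of the 6 anti-Eos peaks 1 overlapped an anti-Helios peak, where the whole list had 27.9% (Wilson interval 25.4 to 30.7%). Of the 3 anti-Helios peaks 1 overlapped an anti-Eos peak, where the whole list had 65.9% (61.5 to 70.0%). Summits within 1 kb of a gene end made up 3 of 6 anti-Eos peaks (Junb with both and Relb), against 39.5% of the list (36.7 to 42.4%). They made up 1 of 3 anti-Helios peaks (Junb), against 51.0% (46.4 to 55.5%). The other 5 peaks lay outside protein-coding genes and more than 1 kb from any gene end. That class held 26.6% of summits in the anti-Eos list and 19.8% in the anti-Helios list. It leaves out summits outside genes that lie within 1 kb of an end. A promoter window was overlapped by 1 of 6 anti-Eos and 0 of 3 anti-Helios peaks, against 30.4% (27.7 to 33.2%) and 40.5% (36.2 to 45.0%). With 6 and 3 peaks none of these differences was tested.

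Other genes of the same pathways were counted in 5 lists of 45 genes in all, set with earlier results of these data known. Of 10 other bZIP partners of AP-1 (Fosl1, Fosl2, Batf, Batf2, Batf3, Jdp2, Atf3, Maff, Mafg and Mafk), 0 had a summit of either antibody. Of 5 further genes of the EGR and NR4A families (Egr2, Egr3, Egr4, Nr4a2 and Nr4a3), 0 had one. At these sizes less than 1 gene per list would have a summit at the rate of all protein-coding genes, so a count of 0 is no sign of fewer peaks. Of 8 other NF-κB genes and inhibitors, 2 had an anti-Eos summit and 0 an anti-Helios summit, against 4.38% and 2.12% of all protein-coding genes. Nfkbia, which encodes the NF-κB inhibitor IκBα, had its summit 242 bp past the gene start (fold 7.90, 13 fragments). Tnfaip3, which encodes the inhibitor A20, was assigned a summit 47258 bp before its start (5.54, 15 fragments).

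Among 12 other immediate early and serum response genes, 2 had an anti-Eos summit (Btg2 and Zfp36) and 3 an anti-Helios summit (Btg2, Dusp1 and Elk4), against the same 4.38% and 2.12%. At Btg2, an antiproliferative gene, the anti-Helios summit lay 114 bp past the start (fold 5.65, 12 fragments). The anti-Eos summit at Btg2 was 10934 bp from the gene (6.95, 12 fragments), so the antibodies did not meet there, as at Fos. Dusp1, which encodes a phosphatase of MAP kinases, had an anti-Helios summit 337 bp past its start (6.32, 13 fragments). Elk4, which encodes an ETS partner of serum response factor, had one inside the gene (4.51, 14 fragments). It lay 90 bp past the nearest start of a promoter window and 615 bp from a gene end. Zfp36, which encodes the mRNA decay factor tristetraprolin, had an anti-Eos summit 1116 bp from its end (6.62, 15 fragments).

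Of 10 upstream kinases and calcium factors, 2 (Mapk14 and Creb1) had summits of both antibodies, against 1.54% of all protein-coding genes. Both genes had overlapping peaks, where 27.9% of the whole anti-Eos list and 65.9% of the whole anti-Helios list overlapped the other. At Mapk14, which encodes the kinase p38α, the summits were 77 bp (anti-Eos, fold 5.89, 16 fragments) and 32 bp (anti-Helios, 10.1, 18 fragments) past the start. The anti-Helios peak there was above 83.4% of its list and the anti-Eos peak above 21.6%, the opposite order to Junb. Creb1, which encodes the cyclic AMP response factor CREB, had overlapping peaks 676 bp (anti-Eos, fold 9.54, 18 fragments) and 639 bp (anti-Helios, 5.40, 23 fragments) from its nearest end. A second anti-Eos summit lay 87 bp from that end (4.70, 17 fragments). Over the 45 genes, 6 had an anti-Eos summit and 5 an anti-Helios summit, which are 13.3% and 11.1% beside the 4.38% and 2.12% of all protein-coding genes. Because the pathway lists were set with earlier results of these data known, these shares give no independent evidence. The shares were not tested, and random genes are not matched to genes active in T cells.

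**Figure D4:**
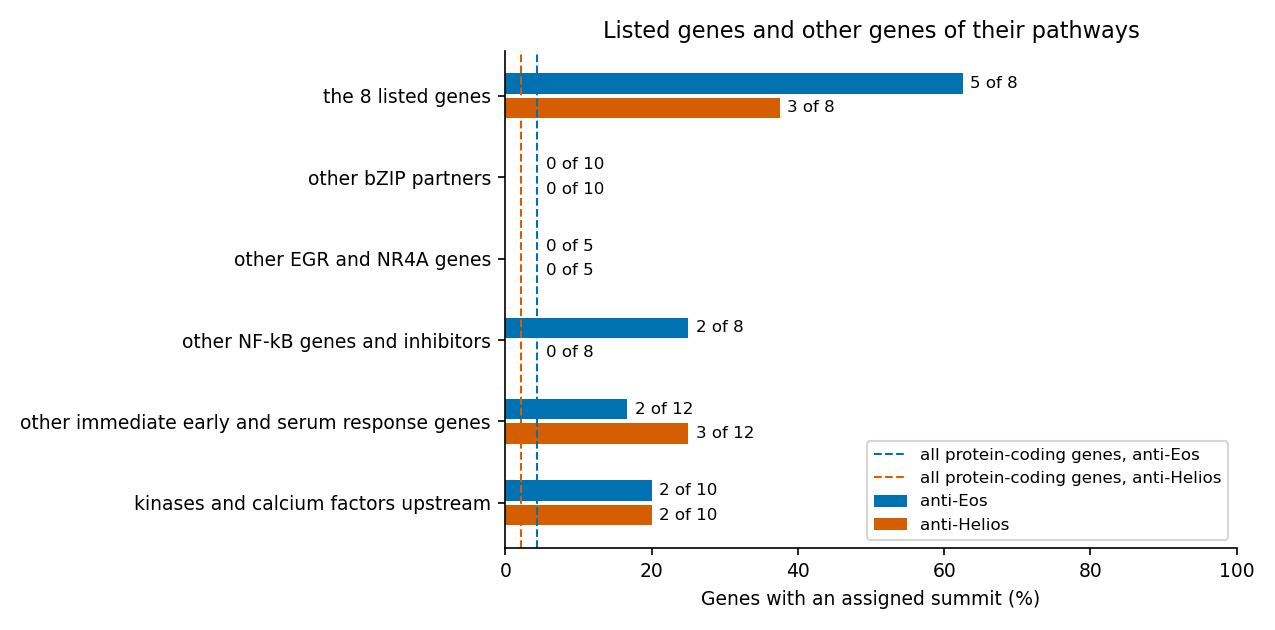
Share of genes with an assigned summit, in percent, for the 8 listed genes and 5 lists of other pathway genes, with anti-Eos in blue and anti-Helios in orange; dashed lines give the share of all protein-coding genes (4.38% and 2.12%). The listed genes reach 5 of 8 and 3 of 8, while the lists of other bZIP partners and of EGR and NR4A genes stand at 0. The listed genes were chosen, and the other lists set, with earlier results in view.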

How the data were processed

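ChIP-seq of wild-type Treg cells with anti-Eos or anti-Helios gave 1 deposited peak list per library, called separately. Per the submitters' processing notes, the builds were mm10 and GRCm38.p6 and the tools deepTools 3.5.1, SAMtools 1.17, Picard, BWA 0.7.1 and cutadapt 4.4. Caller, settings and control of the lists: not given in the sources used here. In every line the deposited values are the authors' fold (a ratio to background), -log10 p-value, -log10 q-value, a score (10 times the -log10 q, truncated to a whole number, in all 1106 and 469 peaks), and the summit offset, another deposited value per peak.

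Summits were assigned with a RefSeq gene table of GRCm38.p6 (21887 protein-coding genes), using either gene end; strand and gene start came from the promoter table. No exon or intron was assigned. Fragments at the summit and local background were solved from fold and p, assuming fold as scaled fragments plus 1 over background plus 1 and an upper Poisson tail. The fold is matched by construction, and the -log10 p-value came within a relative tolerance of 0.0001 for 100% of peaks. The scales were 1 (anti-Eos) and 0.895 (anti-Helios), the latter fitted to these same values. The solution was tested on simulated data made with the same formula, so that test could not check the formula, which is inferred. Local background is in scaled fragments. Lists were compared by overlap of at least 1 bp. Fragment intervals and Wilson intervals are 95% and cover counting error only. For a rank, the Wilson interval counts the peaks of the list and leaves out the error in the peak's own fragments. No test was run. A marker gene of the cell type check is not reported here.

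The listed genes were chosen, and the pathway lists and alternatives set, with earlier results of these data known. All 8 listed genes and their peaks, pathway genes with a summit, protein-coding genes within 5 kb of a listed gene's summit and the nearest summits of genes without a peak are named by rule. Summits within 100 kb of Jund and the lncRNA gene at the Fos summit were named after their values were seen. Alternatives were a reach of 10 or 500 kb, a -log10 q of at least 5, genes of all biotypes, nearest end only, anti-Eos peaks limited to the 469 with the highest -log10 q, overlap by at least 50% of the shorter peak or summits within 500 bp, ranking by -log10 q, 2 kb as near, and motif letters on the gene strand. Python 3.11.15, pandas 2.3.3 and SciPy 1.17.1 were used.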

Additional observations from a re-analysis of the deposited data

How the results depend on the processing

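Of 49 recomputed values, 37 stayed close to those reported and 12 moved. Close means within 1.5 times for a count, and within the 95% Wilson interval of the reported value for a median rank. That interval leaves out the counting error in the peaks' own fragments. Some of the 37 could not have moved, such as gene-strand counts of letters found in 0 windows on both strands. A reach of 500 kb could add no summit to the listed genes either, since 0 summits had one as their nearest beyond 100 kb. With a -log10 q of at least 5, 3 anti-Eos summits at 3 listed genes were left (Egr1, Junb and Relb) and 2 anti-Helios summits at 2 (Junb and Jund). Fos lost both of its peaks, and 1 gene had both antibodies. The same minimum left 2 anti-Helios summits at 2 of 45 pathway genes, against 1.63% of all protein-coding genes. With the anti-Eos list limited by -log10 q to its first 469 peaks, 1 anti-Eos summit at 1 listed gene was left, at the start of Junb. Then 3 of 8 listed genes had either antibody and 1 of 8 had both. The shares of all protein-coding genes with either or both antibodies were not computed under these limits, so these counts have no comparison. With fewer peaks entering, counts of genes with a summit can only stay or fall. The anti-Eos count of listed genes went from 5 to 3 at the -log10 q minimum and to 1 in the limited list. Over all protein-coding genes the share went from 4.38% to 3.44% and to 2.06%. The difference between these falls was not tested. Ranked by -log10 q, the median anti-Eos peak of these genes stood above 33.3% of the list, in place of 37.3% by fold. On the gene strand alone, 2 of 6 windows held GGGAA, against 38.9% of all windows, and 1 of 6 held TGGGAA, against 13.7%. A reach of 10 kb left out the anti-Eos summit of Fos, and with genes of all biotypes it went to Gm38543. The Junb overlap was found under each overlap rule tried. That outcome was fixed, because the anti-Helios peak lay wholly inside the anti-Eos peak with summits 36 bp apart. No paired analysis was possible because each group has 1 library, and no replicate could be left out. Counts of 7 to 17 fragments limit the folds of the 9 peaks at the listed genes.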
